A study of Macaca mulatta with 2 samples.

Results

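Collagen chains were followed on 2 two-colour microarrays that compared Sertoli cell cultures of pubertal and infant rhesus macaques (Macaca mulatta). Every non-control probe was taken whose gene name in the scanner files was COL, a number, A and a number. This gave 40 chains of 30982 gene names on the array, measured by 66 of 41000 probes (93 spots). Pubertal donors were 18 to 22 months old, and their puberty was induced by pulsed gonadotropin-releasing hormone (GnRH; 0.15 µg/min for 2 min, 3 h apart, over 4 to 5 weeks). Infant donors were less than 3 months of age. Every culture was primary and had testosterone (100 nM) and FSH, the follicle-stimulating hormone (5 ng/ml), for 24 h, so that no culture without hormones is compared here. Array 1 set pubertal RNA in Cy5 against infant RNA in Cy3, and array 2, with other animals, pubertal RNA in Cy3 against infant RNA in Cy5. The comparison asks how Sertoli cells of the 2 stages differ under the same hormones.

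Collagens are proteins of 3 chains wound into a triple helix, in which glycine returns at a fixed spacing along each chain. Fibrillar collagens such as types I, III and V form the tensile fibrils of connective tissue, while type IV forms the sheet-like network of basement membranes. In the testis a basement membrane separates the Sertoli cells from the peritubular myoid cells, and fibrils lie in the tubule wall and in the interstitium around it.

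The probes are 60-base sequences of a human array design, with coordinates on human build hg17 per the file headers, so macaque RNA was measured with human probes. Of the 41000 probes, 3 read through the helix repeat from end to end: the codon GGN (glycine) recurs every 9 bases without a break, in a frame with no stop codon. All 3 belong to collagen chains (0.00732% of all probes, 4.55% of the collagen probes). On the other strand 1 probe of the array, of no collagen chain, held the repeat. The 3 probes are shown because they cover the coding part that defines the family, and because 2 of them gave opposite signs on the 2 arrays. Their glycine codons are in capitals, written 5′ to 3′ as on the array. The COL3A1 probe lies at chr2:189694582-189695626 on the plus strand, the COL4A1 probe at chr13:109624341-109624847 on the minus strand and the COL4A5 probe at chrX:107675633-107675692 on the plus strand. The first pair span more than 60 bases of genome (1045 and 507), as probes across exon junctions do.
COL3A1 helix probe: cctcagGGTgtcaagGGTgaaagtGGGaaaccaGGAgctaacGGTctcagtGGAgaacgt
COL4A1 helix probe: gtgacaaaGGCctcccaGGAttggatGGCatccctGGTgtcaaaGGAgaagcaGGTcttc
COL4A5 helix probe: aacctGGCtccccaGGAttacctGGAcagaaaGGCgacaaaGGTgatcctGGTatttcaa
Between collagen probes of different chains the longest stretch of identical bases was 11, shared by a COL4A4 and a COL15A1 probe.

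On array 1, 74.8% of spots were well above background for pubertal and 60.9% for infant RNA, and on array 2 the shares were 62.6% and 71.5%. A probe was kept if it was well above background in both pubertal or in both infant channels. This held for 25768 probes, among them 52 collagen probes of 33 chains. The 2 arrays agreed little: over the kept probes 45.3% had the same sign and Pearson's r was -0.07 (across probes, which are not independent). Of the 12 Sertoli cell markers, including SOX9, WT1 and CLDN11, all were measured. FSHR, the FSH receptor, was well above background in 1 of 2 pubertal cultures. RNA of marked stromal cells was also present, as given below. In such cultures fewer cells of a type and less RNA per cell cannot be told apart.

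No collagen probe passed limma's test (0 of 52 at an adjusted p under 0.05; background 0.0%, 0 of 25768 probes). At an unadjusted p under 0.05, collagen probes numbered 6 on the lower side, where 1.79% of all probes stood, and 2 on the higher side, where 2.26% stood. All differences below are therefore described and not called. Ratios are log2 of pubertal over infant, and levels are log2 intensities after normalization. Errors are moderated SE with n = 2 array pairs.

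With the offset of 50 used here, the chains furthest below infant cells were COL15A1, COL3A1 and COL6A3, and those furthest above were COL8A1 and COL4A4. The order of the dim chains depends on that offset: with the scanner's own signals COL13A1 (-1.77), COL11A1 (-1.48), COL4A6 (-1.40) and COL21A1 (-1.35) had lower means than COL3A1 (-1.22) and COL6A3 (-1.13). Fibrillar chains leaned to the lower side, and type IV and the other chains went both ways. Of the 52 kept probes 19 were lower in pubertal cells on both arrays, where 21.9% of all probes were, and 11 were higher on both, where 23.4% were. For the other 22 the arrays disagreed in sign. The median over the collagen probes was -0.25 on array 1 and 0.02 on array 2, beside 0.02 and -0.01 over all kept probes. Probes of 1 chain share a transcript and are not independent.

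**Figure D1:**
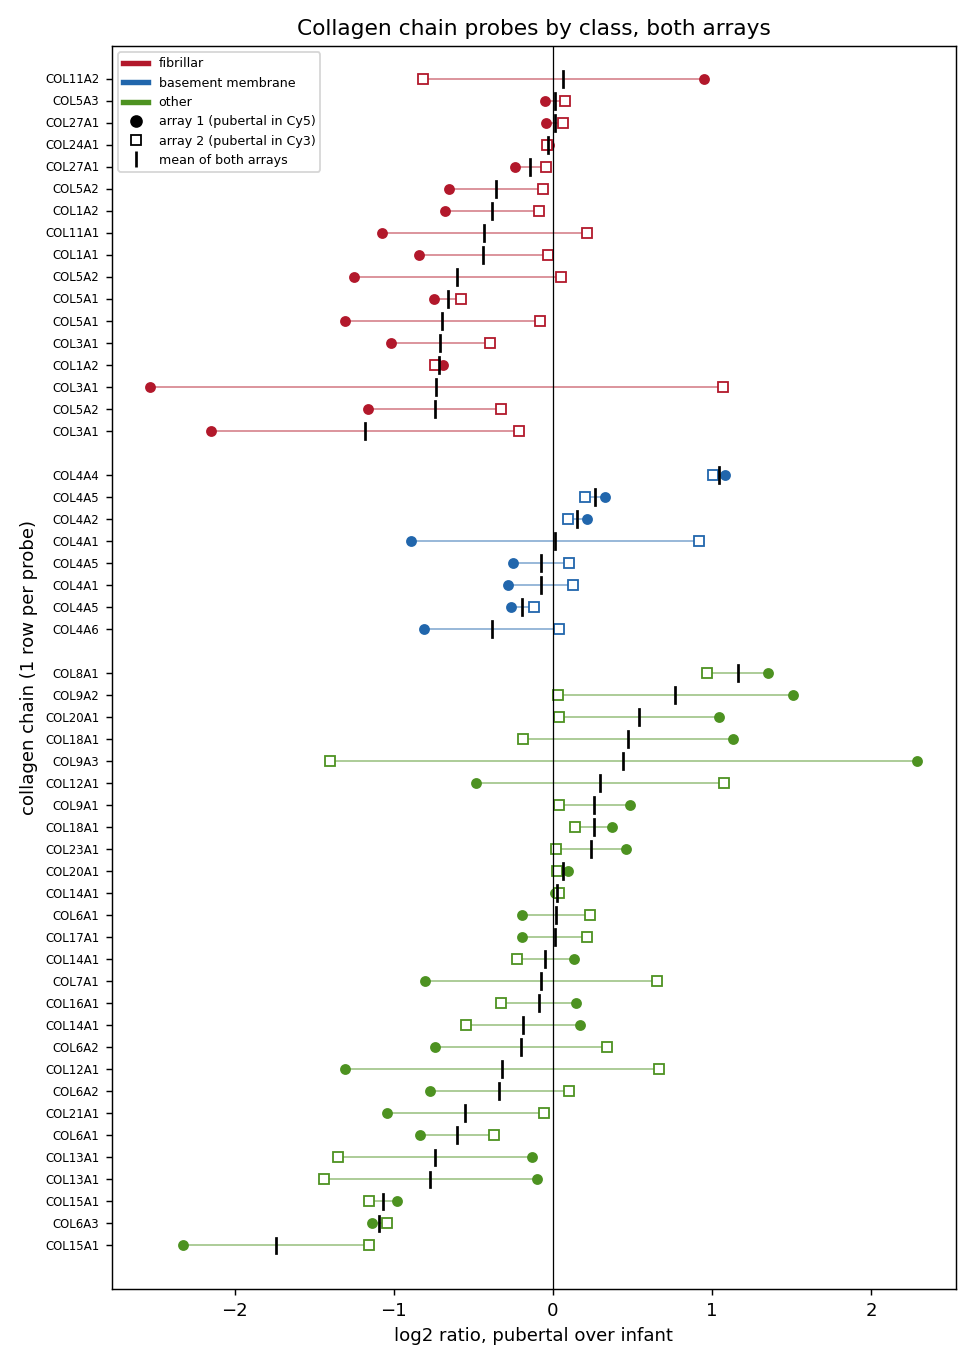
Log2 ratio of pubertal over infant (x axis) for each of the 52 kept collagen probes (rows, grouped by class in colour), with array 1 as a filled circle, array 2 as an open square and their mean as a black bar. Fibrillar probes lie mostly left of 0, with 11 of 17 lower on both arrays and 0 higher, while long bars such as those of COL3A1 and COL9A3 mark probes on which the arrays disagree.

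Among the fibrillar chains, 17 of 18 probes were kept, from 10 of 11 chains. Of these 11 were lower in pubertal cells on both arrays and 0 were higher on both, beside 21.9% and 23.4% of all probes. Array 1 carried most of this: 16 of 17 were below 0 with a median of -0.75, against 12 of 17 with a median of -0.06 on array 2. At the brightest probe of each chain 6 of 10 were lower on both arrays, beside 21.9% of all genes. The COL24A1 probe, among the 11, was kept through the infant channels only. With a stricter filter, well above background in every channel, 10 of 15 fibrillar probes were lower on both arrays, beside 21.9% of all probes.

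Type I collagen is the main fibril former, built from 2 kinds of chain. COL1A2, its alpha 2 chain (chr7:93703294-93703353), had 13.21 and 13.64 in pubertal cells, against 13.89 and 14.38 in infant cells. Both pubertal values lay below both infant values, as they did for 16 of the 52 collagen probes and for 14.1% of all probes. The ratios were -0.69 and -0.74, a mean of -0.71 ± 0.24, or 1.64-fold lower. This probe was spotted 10 times on each array, and the spots had an SD of 0.10 on each. A second, much dimmer COL1A2 probe had -0.68 and -0.09.

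COL1A1, the alpha 1 chain, has its probe on the minus strand at chr17:45616564-45616625. It had 12.30 and 13.25 in pubertal cells, against 13.13 and 13.28 in infant cells, so the groups overlapped. Its ratios were -0.84 and -0.03 (mean -0.44 ± 0.30). The 9 usable spots of array 1 ran from -1.01 to -0.66 and the 10 of array 2 from -0.18 to 0.09. Spots of 1 array share their RNA and give technical error only, and the 2 arrays also differ in animals and dyes.

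COL3A1, the chain of type III collagen found with type I in stretchable tissue, had the lowest mean of the fibrillar group. Its brightest probe (chr2:189700577-189700918) had 10.65 and 11.27 in pubertal cells, against 12.80 and 11.48 in infant cells. The groups did not overlap, but the ratios of -2.15 and -0.21 differed widely (mean -1.18 ± 0.48, 2.27-fold lower). A second probe had -1.02 and -0.40, again with no overlap.

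The helix probe of COL3A1 shown above differed from these on array 2. Its levels were 8.71 and 9.69 in pubertal cells, against 11.24 and 8.62 in infant cells, which gave ratios of -2.53 and 1.07. All COL3A1 probes were thus lower on array 1, and on array 2 the helix probe was on the other side from the remaining pair.

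Type V collagen, which starts fibrils and limits their width, was measured by 6 kept probes. COL5A1 (chr9:134960497-134960556) had 9.48 and 9.82 in pubertal cells, against 10.23 and 10.40 in infant cells. Its ratios were -0.75 and -0.57 (mean -0.66 ± 0.24, 1.58-fold lower), and a second probe had -1.31 and -0.08. Neither probe showed overlap between the groups.

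COL5A2, whose gene neighbours COL3A1, had 11.45 and 12.08 in pubertal cells, against 12.70 and 12.02 in infant cells at its brightest probe. The ratios were -1.25 and 0.05, so the sign rested on array 1. Its other probes had -1.16 and -0.32, and -0.65 and -0.06. COL5A3 was dim, at -0.05 and 0.08.

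The remaining fibrillar chains varied. COL11A2, a cartilage chain, had 8.54 and 7.21 in pubertal cells, against 7.58 and 8.03 in infant cells, with ratios of 0.95 and -0.82. COL11A1 went the other way, at -1.07 and 0.21. COL27A1 (-0.24 and -0.04 at its brighter probe) and COL24A1 (-0.02 and -0.04) count among the probes lower on both arrays, though close to 0. In contrast COL2A1, the main cartilage chain, was not well above background in any channel.

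**Figure D2:**
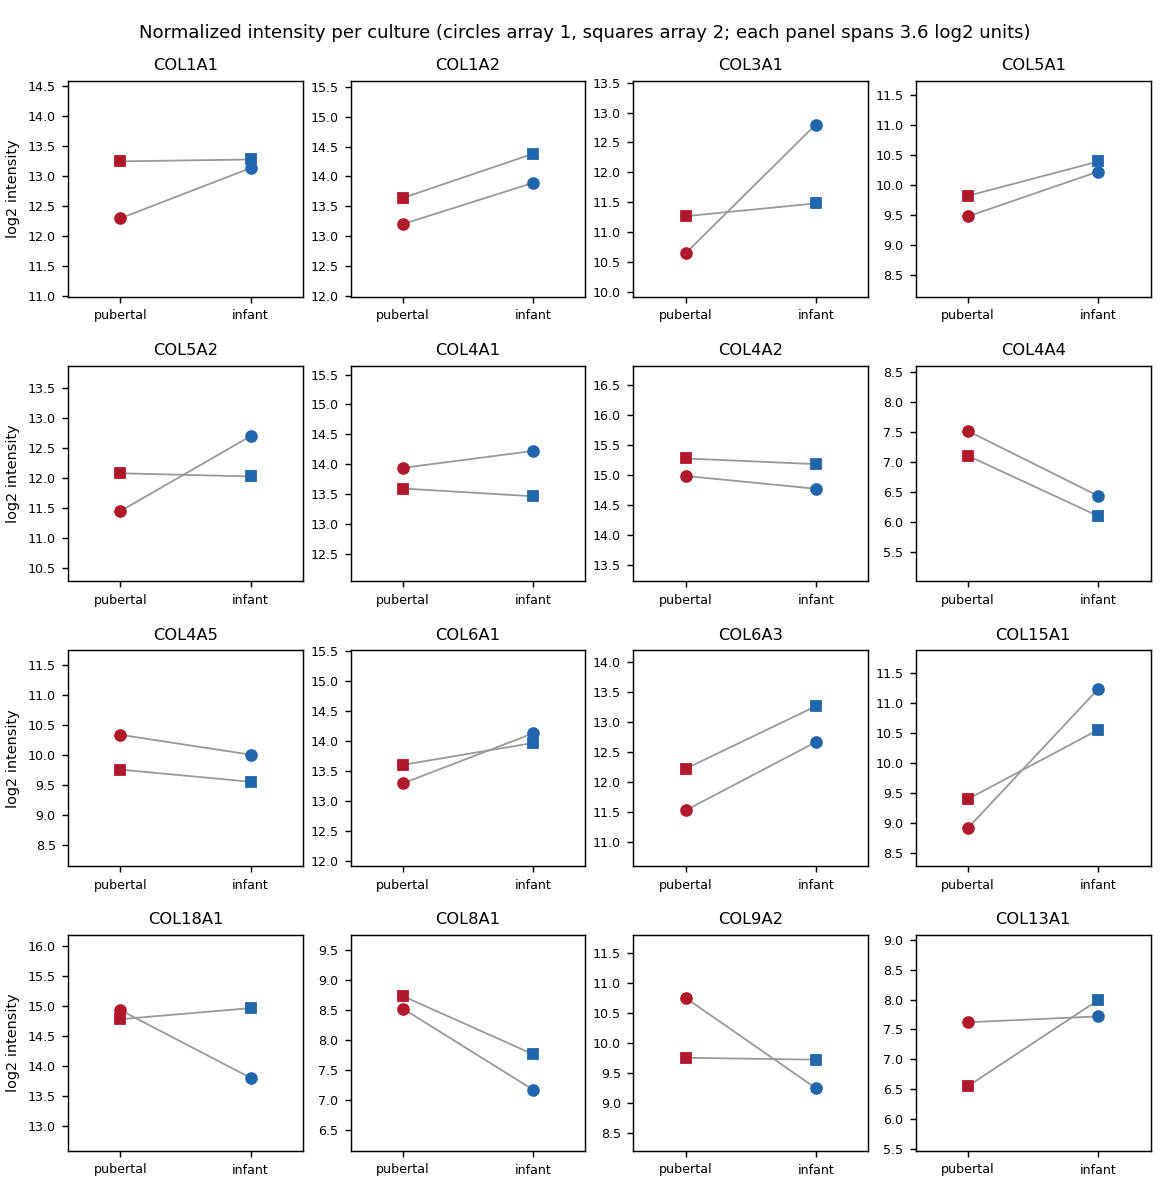
Normalized log2 intensity (y axis, same span in each panel) at the brightest kept probe of 16 collagen chains in pubertal (left, red) and infant (right, blue) cultures, with circles for array 1, squares for array 2 and a line joining the cultures of 1 array. Both lines slope the same way for COL1A2, COL6A3 and COL15A1 (lower in pubertal) and for COL8A1 and COL4A4 (higher in pubertal), and the lines for COL3A1, COL5A2 and COL18A1 differ widely in slope.

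Type IV collagen of the basement membrane was measured by 8 of 11 probes, from 5 of 6 chains. On both arrays 3 of the 8 probes were higher in pubertal cells and 1 was lower, beside 23.4% and 21.9% of all probes. The type IV median was -0.25 on array 1 and 0.11 on array 2. The range of mean ratios ran from -0.38 to 1.05.

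COL4A1 and COL4A2, whose genes lie head to head and whose products make the network found in nearly all basement membranes, were both bright. COL4A1 (chr13:109600348-109600407, minus strand) had 13.94 and 13.60 in pubertal cells, against 14.22 and 13.47 in infant cells, and ratios of -0.28 and 0.13. The sign of its mean (-0.08 ± 0.26) turned with median centring of the arrays. The helix probe of COL4A1 had ratios of -0.89 and 0.92, which cancel to a mean of 0.01. COL4A2 (chr13:109963262-109963321) had 14.98 and 15.27 in pubertal cells, against 14.77 and 15.18 in infant cells. Its Cy5 spot was saturated on both arrays, so the ratios of 0.21 and 0.09 have limited meaning.

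COL4A4, a chain of the more restricted alpha 3, alpha 4 and alpha 5 network, stood apart within type IV. Its probe (chr2:227695541-227695600, minus strand) had 7.52 and 7.11 in pubertal cells, against 6.43 and 6.10 in infant cells. No infant value reached a pubertal one, as for 5 of the 52 collagen probes and 15.6% of all probes. The ratios were 1.09 and 1.01 (mean 1.05 ± 0.24, 2.07-fold higher; limma adjusted p = 0.902). It was the 1 collagen probe at least 2-fold higher on both arrays, where 0.303% of all probes were. The probe is dim, and the infant RNA was well above background on 1 of 2 arrays. Because an offset of 50 was added to intensities, its ratio depends on the background correction: the mean was 2.31 without the offset and 3.65 with the scanner's own signals.

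The partners of COL4A4 in that network had smaller ratios or no kept probe. COL4A5 (chrX:107746725-107746784) had 10.34 and 9.76 in pubertal cells, against 10.004 and 9.55 in infant cells, with ratios of 0.33 and 0.20. Its helix probe, much dimmer, had -0.26 and -0.12, and its remaining probe -0.25 and 0.10, so the COL4A5 probes disagreed in sign. COL4A3 had no kept probe: 1 of its 2 probes was well above background in a single channel, a pubertal one. COL4A6, whose gene adjoins COL4A5, had -0.81 and 0.04 at 1 dim probe (mean -0.38 ± 0.30, and -1.40 with the scanner's own signals).

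The remaining 23 chains had 37 probes, of which 27 from 18 chains were kept. Of these 7 were lower (25.9%) and 8 higher (29.6%) on both arrays, near the 21.9% and 23.4% of all probes. The medians of these chains were -0.10 and 0.03.

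COL15A1 had the lowest mean ratio of all collagen probes. Type XV collagen is a multiplexin, a chain with an interrupted helix that sits at the outer face of basement membranes. At its brighter probe (chr9:98908723-98908782) it had 8.92 and 9.40 in pubertal cells, against 11.24 and 10.56 in infant cells. The ratios were -2.32 and -1.16 (mean -1.74 ± 0.35, 3.34-fold lower; limma adjusted p = 0.854). The second probe, at chr9:98912320-98912379, had 9.17 on both arrays in pubertal cells, against 10.15 and 10.33 in infant cells. Its ratios were -0.98 and -1.15 (mean -1.07 ± 0.24; limma adjusted p = 0.90), so neither probe showed overlap of the groups.

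COL18A1, the other multiplexin and the source of endostatin, differed from COL15A1. It had 14.94 and 14.79 in pubertal cells, against 13.81 and 14.97 in infant cells, with ratios of 1.13 and -0.18. The pubertal spot of array 1 was saturated. A dimmer probe had 0.38 and 0.14, with both pubertal values above both infant values.

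Type VI collagen forms beaded filaments between fibrils and cells from alpha 1, alpha 2 and further chains. COL6A3 (minus strand, chr2:238014644-238014681) had 11.53 and 12.22 in pubertal cells, against 12.67 and 13.27 in infant cells. Its ratios of -1.14 and -1.04 were close (mean -1.09 ± 0.24, 2.13-fold lower; limma adjusted p = 0.90), and the groups did not overlap. The coordinates of this probe span 38 bases, fewer than the 60 of its sequence. The other COL6A3 probe was well above background in no channel and was not kept. COL6A3 and COL15A1 gave the 2 collagen probes at least 2-fold lower on both arrays, where 0.299% of all probes were.

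COL6A1 (chr21:46249264-46249323) had 13.29 and 13.60 in pubertal cells, against 14.13 and 13.97 in infant cells, with ratios of -0.83 and -0.37. A much dimmer COL6A1 probe had -0.19 and 0.24. COL6A2 had 7.85 and 8.85 in pubertal cells, against 8.59 and 8.51 in infant cells, and ratios of -0.74 and 0.34. Its second probe repeated this, at -0.77 and 0.10. The 3 chains of type VI thus differed in how far array 2 went with array 1.

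COL8A1 had the highest mean ratio of all collagen probes with the offset of 50, though not with an offset of 0 (1.57, against 2.31 for COL4A4) or with the scanner's own signals. Its product is a short chain of the hexagonal network known from vessel walls and the cornea. It had 8.52 and 8.73 in pubertal cells, against 7.17 and 7.76 in infant cells (chr3:100997455-100997514). The ratios were 1.35 and 0.97 (mean 1.16 ± 0.25, 2.24-fold higher; limma adjusted p = 0.90), with both pubertal values above both infant values. The related COL8A2 and COL10A1 had no kept probe.

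Fibril-associated chains, which sit on the surface of fibrils, were measured by 12 kept probes, 5 of them higher and 1 lower on both arrays (23.4% and 21.9% of all probes). COL9A2, a chain of cartilage fibrils, had 10.75 and 9.75 in pubertal cells, against 9.25 and 9.72 in infant cells, and its ratios of 1.51 and 0.03 came from array 1. COL9A3, the next chain of the same trimer, had 10.59 and 8.80 in pubertal cells, against 8.30 and 10.20 in infant cells. Its ratios of 2.29 and -1.40 were the furthest apart of all chains at their brightest probe. COL9A1 had 0.48 and 0.04.

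COL20A1 had 8.10 and 7.41 in pubertal cells, against 7.06 and 7.38 in infant cells, with ratios of 1.04 and 0.04. COL21A1 had 6.36 and 6.78 in pubertal cells, against 7.40 and 6.84 in infant cells, with ratios of -1.04 and -0.06. In both the difference lay on array 1, and with the scanner's own signals the means were 0.99 for COL20A1 and -1.35 for COL21A1, against 0.54 and -0.55 with the offset. COL12A1, bright at its first probe, had -0.48 and 1.08, and -1.31 and 0.67 at its second. COL16A1 had 0.15 and -0.33, and the 3 kept COL14A1 probes had means of -0.19 to 0.03. COL19A1 and COL22A1 had no kept probe.

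Among transmembrane chains, COL13A1, a membrane collagen of cell adhesion sites, was lower with the weight on array 2. At its brighter probe (chr10:71388817-71388876) it had 7.62 and 6.56 in pubertal cells, against 7.72 and 7.99 in infant cells. The ratios were -0.10 and -1.44 (mean -0.77 ± 0.38). On array 2, which carried the difference, pubertal RNA was not well above background at this probe. The mean was -1.35 with an offset of 0 and -1.77 with the scanner's own signals. A second probe, well above background in every channel, had -0.13 and -1.35. COL23A1 had 0.46 and 0.02 and COL17A1 -0.19 and 0.22, while all 3 COL25A1 probes were below the filter. COL7A1, which forms the anchoring fibrils of skin, had -0.80 and 0.65.

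**Figure D3:**
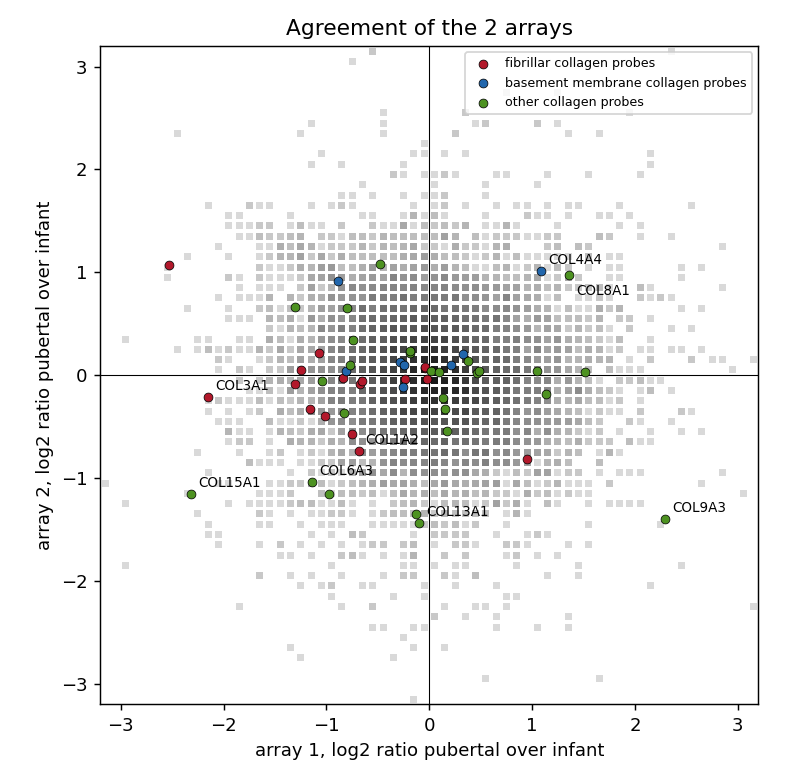
Log2 ratio of pubertal over infant on array 1 (x axis) against array 2 (y axis), with the 52 kept collagen probes coloured by class over the density of all 25768 kept probes in grey (darker is more probes; 21 probes lie beyond the axis limits). COL15A1 and COL6A3 lie low on both axes and COL8A1 and COL4A4 high on both, while COL9A3 lies in the quadrant of opposite signs.

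Probes of 1 chain did not always share a sign. Of the 15 chains with 2 or more kept probes, 9 had all their mean ratios on 1 side of 0. No chain had kept probes more than 1 apart in mean ratio. Of the 66 collagen probes 32 are listed in the authors' deposited table, all of them among the kept ones. That table lists 4848 of the 41000 probes. Each collagen probe in it has a ratio beyond 1 in size on at least 1 array, and the brightest COL1A1 and COL1A2 probes are missing. Its values are thus those of a selected list. There COL15A1 stands at -2.36 and -1.34 at the brighter probe and COL6A3 at -1.09 and -1.20, in the authors' deposited table of log2 ratios. For COL8A1 the authors' deposited table gives 2.20 and 1.15, and for COL4A4 3.10 on array 2 with an empty cell for array 1.

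Genes that build collagen in the endoplasmic reticulum were next set beside the chains, each at its brightest kept probe. Of 25 genes 18 were matched and measured: 6 were lower on both arrays, where 21.9% of all genes were, and 0 higher, where 23.5% of all genes were. None of these genes passed the test (limma, 0 of 18). The median ratios were -0.22 and -0.11. SERPINH1, the collagen-specific chaperone HSP47, had -1.18 and -0.30, and the lysyl hydroxylase PLOD1 -0.96 and -0.29. The prolyl hydroxylase subunits P4HA1 and P4HB had -0.82 and -0.13, and -0.22 and -0.61, with a further P4HB probe at a mean of 0.08.

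Enzymes that trim and cross-link collagen went both ways, with 1 of 13 lower and 2 higher on both arrays. Over all genes 21.9% were lower and 23.5% higher. Medians of the enzymes were -0.09 and 0.29, and 0 passed limma's test. The procollagen C-proteinase enhancers split: PCOLCE had -0.79 and -0.65, and PCOLCE2 1.06 and 0.59. LOX, a cross-linking oxidase, had 0.76 and 0.07, and the proteinase TLL2 1.58 and -0.69. Of 10 measured matrix proteins that bind fibrils 3 were lower and 0 higher on both, beside the same shares of all genes. Medians of these proteins were -0.87 and -0.05, and 0 passed. The small proteoglycans DCN (-1.97 and -0.43) and FMOD (-0.76 and -0.42) were among the lower, while DPT had -1.53 and 0.42 and TNXB 1.37 and -0.01.

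Collagen receptors and collagen-degrading enzymes closed the set, and none passed limma's test (0 of 9 and 0 of 6). Of the receptors 4 were higher and 1 lower on both arrays, beside 23.5% and 21.9% of all genes. DDR2, a receptor kinase for fibrillar collagen, had -1.02 and -1.01 (mean -1.01 ± 0.24; limma adjusted p = 0.93). Its relative DDR1 had 0.27 and 0.44, and the integrins ITGB1 and ITGA1 had 0.38 and 0.36, and 0.27 and 0.21. ITGA1 was well above background for infant RNA on 1 of 2 arrays, and ITGB1 had a saturated pubertal spot. Of the degrading enzymes 4 were lower and 2 higher on both, beside 21.9% and 23.5% of all genes. The collagenase MMP1 had -1.13 and -1.29 (mean -1.21 ± 0.24; limma adjusted p = 0.854), the gelatinases MMP2 and MMP9 -0.79 and -0.39, and 1.31 and 0.67, and the stromal protease FAP -1.14 and -0.28.

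**Figure D4:**
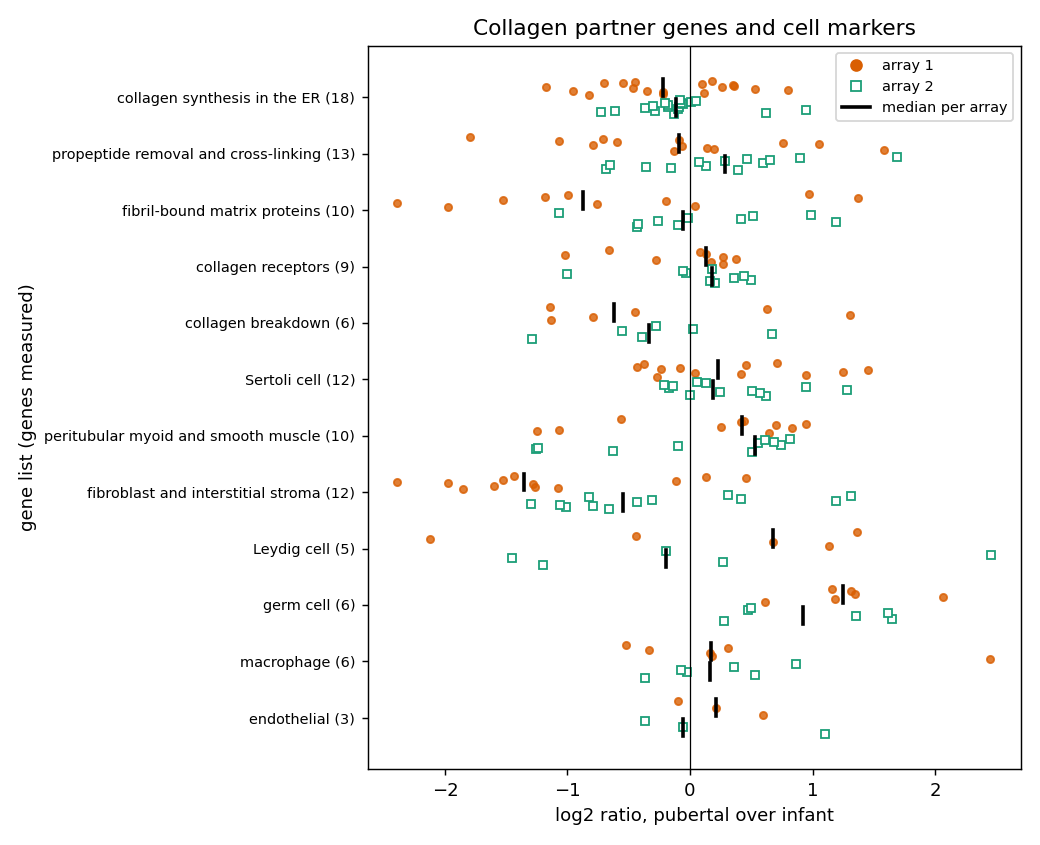
Log2 ratio of pubertal over infant (x axis) for each measured gene of 5 collagen-related lists and 7 cell type marker lists (rows, number of genes in brackets), with array 1 as filled circles, array 2 as open squares and black bars for the median on each array. Medians of the stromal markers lie below 0 on both arrays (-1.36 and -0.55) and those of the germ cell markers above 0 on both (1.25 and 0.93).

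Markers of other cell types were measured in the same cultures. Over all genes, at their brightest kept probe, 21.9% were lower and 23.5% higher on both arrays. Of 12 fibroblast and interstitial stroma markers, chosen without collagens, 7 were lower and 1 higher on both arrays (medians -1.36 and -0.55). Their summed linear intensities were 17355 and 21290 in pubertal cells, against 49112 and 33524 in infant cells. All 12 were measured, DCN, DPT and LUM being also among the fibril-bound proteins above, and none passed limma's test. The median difference was larger in size on array 1, as also for the fibrillar chains. The same held for every other partner and marker list except the trimming and cross-linking enzymes, the collagen receptors and the myoid markers. In those lists it was larger on array 2.

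The further marker counts stand beside the same shares of all genes, 21.9% lower and 23.5% higher on both arrays. Of 10 peritubular myoid and smooth muscle markers, 5 were higher and 2 lower on both arrays. They had summed intensities of 67244 and 113084 in pubertal cells, against 45890 and 99576 in infant cells. Sertoli cell markers were higher for 6 of 12 and lower for 2, with sums of 100284 and 94743 in pubertal cells, against 93845 and 77563 in infant cells. Germ cell markers were higher for 6 of 6, with sums of 2262 and 1869 in pubertal cells, against 869 and 861 in infant cells. Of 5 Leydig cell markers 1 was lower and 1 higher on both arrays (sums of 99685 and 91805 in pubertal cells, against 93530 and 62495 in infant cells). Of 6 macrophage markers 1 was lower and 2 higher (1422 and 978 in pubertal cells, against 775 and 934 in infant cells). Of 3 endothelial markers 1 was lower and 1 higher (510 and 540 in pubertal cells, against 451 and 482 in infant cells). All sums include the offset of 50 added to each intensity, which weighs most on the small sums of the germ cell, macrophage and endothelial lists. The endothelial genes CDH5, KDR and TEK and the Leydig cell gene LHCGR had no kept probe. What part other cell types have in the collagen differences was not tested.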

How the data were processed

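The submitters' processing notes name Agilent Feature Extraction 9.5.1.1 for the array files. The deposited files give, per the file headers, mean and background intensities per channel, processed intensities, a log10 ratio of Cy5 over Cy3, and flags for each spot. The authors' deposited table holds log2 ratios of 4848 probes. How they were normalized is not given in the sources used here.

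Scanner intensities were corrected by normexp (offset 50) and normalized by loess in limma 3.58.1 (R 4.3.3). Outlier spots were left out and spots of 1 probe averaged. A probe counted as well above background where a share of at least 0.5 of its spots was. Levels are per-channel values after Aquantile scaling. Each ratio was given the sign of pubertal over infant from the labelled dyes and tested with lmFit and eBayes over 25768 kept probes (1 residual degree of freedom, 4.33 from the prior; two-sided, Benjamini-Hochberg). A dye term would have left no residual degrees of freedom. The steps were run on simulated data with little noise and no dye or animal effect. That run checks the code and not how well differences are found in these arrays. Both arrays were on 1 slide and in 1 scan, and p-values rest on 2 array pairs. The number of arrays limits the precision.

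Named in full were 21 chains: 13 fixed ones, those of 1 sign on both arrays with a mean of at least 0.5, any with probes over 1 apart, and the 3 whose arrays differed most. Of each partner list the 4 genes with the smallest p were named. Members and lists were chosen with earlier results of these data known. Of 25 synthesis genes 7 could not be matched by name. Alternatives covered background, normalization, filters, probe choice, saturation, trend and single arrays. No macaque genome was used here, so probe mismatches were not assessed.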

Additional observations from a re-analysis of the deposited data

How the results depend on the processing

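No collagen probe passed the test under any of the 8 alternatives with both arrays. Of the refitted values of named chains 163 kept their direction and their side of the threshold, while 1 reversed. Only the offset of 0, the scanner's signals and median centring change a probe's ratios. The other alternatives reuse the ratios, so there the direction could not turn. The sign of the COL4A1 mean turned to 0.15 with median centring, which left all kept probes at medians of 0.57 and -0.37. In the authors' deposited table, which has no test, 9 means lay within the spread between arrays and 2 beyond it (COL21A1 at -1.35 and COL8A1 at 1.67). That spread is the SD of a chain's own 2 ratios, so chains whose arrays disagree, such as COL9A3, lie within it easily. The count is therefore no measure of agreement with the authors. Over all probes 1 passed at an offset of 0, 1 with median centring, 1 with the stricter filter and 9 with an intensity trend. Fibrillar probes lower on both arrays numbered 7 with median centring (10.3% of all probes were lower there) and 6 with 1 probe per gene (21.9% there). Type IV probes lower on both numbered 3 with the scanner's signals (23.2% of all probes there), 0 with median centring and 0 with 1 probe per gene. Collagen probes at least 2-fold lower numbered 1 with median centring (0.113% of all probes there). Those at least 2-fold higher numbered 2 with an offset of 0 (0.745%), 2 with the scanner's signals (1.27%) and 0 with the stricter filter (0.313%). Of the 18 synthesis genes, those lower on both numbered 2 with median centring (10.3% of all probes there). They numbered 7 with an offset of 0 (22.5%) and 9 with the scanner's signals (23.2%). The stricter filter and 1 probe per gene leave fewer probes to count, and for the others the cause was not tested. On 1 array alone, counts below 0 ran from 12 to 16 for fibrillar, 1 to 5 for type IV and 12 to 14 for other chains. For synthesis genes they ran from 10 to 14. Over all probes 47.4% were below 0 on array 1 and 51.2% on array 2. Collagen counts past 2-fold ran from 6 to 11 lower and 3 to 6 higher. Over all probes 2.84% and 2.04% were at least 2-fold lower on arrays 1 and 2, and 3.71% and 2.21% higher. The fibrillar median was -0.06 on array 2 and -0.75 on array 1. The test is already paired by array, so no further block could be added. The stricter filter left 44 of the 52 collagen probes and 5 of the 8 type IV probes. The type IV median was 0.01 there, against -0.03 in the main run. COL4A6, COL5A3 and COL24A1 lost their only kept probe. Among the named chains at their brightest probe, dimness limits COL4A4 most. Its probe and the brighter of the COL13A1 probes drop out under the stricter filter, while the second COL13A1 probe stays.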
